A study of Mus musculus with 17 samples.

Results

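Cells given both fragments of p65/RelA, 1-361+362-549 (3 arrays), were compared with cells given the N-terminal fragment 1-361 alone (3 arrays), so that the 362-549 fragment is the labelled difference between them. These 6 arrays were chosen by the source name of each sample, out of 17 arrays in all. The other 11 arrays held cells given 362-549 alone (3), the D361E mutant that the series design calls non-cleavable (4) and wild-type p65 (WT, 4), and they entered the same statistical model. All groups share the murine Bcr-Abl+ leukaemia line DA1-3b (labelled strain mouse C3H eOuJ), growth in DMEM with foetal calf serum, and transfection with a plasmid. The promoter of the plasmids, the time after transfection, and whether a group is a clone or a pool are not given in the sources used here. Cells with the void plasmid that the protocol names were not analysed here. The labels do not say that arrays of a group came from separate cultures, and p-values here rest on array-to-array spread that may be technical.

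RelA is among the proteins that pair up as NF-kB, a transcription factor. Its N-terminal Rel homology domain binds DNA, pairs with other subunits and is held by inhibitor of kappa B proteins, and its C-terminal part carries the transactivation domains that recruit the transcription machinery. The 1-361 construct therefore covers the DNA-binding part of the protein and the 362-549 construct the transactivating part, as separate molecules. In blood cells NF-kB is known for driving cytokine, chemokine and survival genes.

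Each array measured RNA as the brightness of 60-base probes. Levels are log2 of the background-corrected signal minus the 75th percentile of the array, so a level of 0 is that percentile. That percentile was 1065, 1214 and 847 on the 1-361+362-549 arrays and 877, 643 and 802 on the 1-361 arrays (arbitrary units). A probe is dim where the scanner software did not find it well above background, and then has only a bound there. Replicate 3 of 1-361+362-549 stood apart: it correlated across genes with replicates 1 and 2 of its own group at 0.977 and 0.966, where these correlated at 0.994 with each other, and with the 1-361 arrays at 0.971 to 0.977. Genes are not independent replicates, so these correlations describe the arrays only. The main counts below are therefore also given without that array.

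Of 15256 genes tested, 1698 (11.1%) were called at an adjusted p under 0.05 by limma, 710 (4.65%) higher and 988 (6.48%) lower with both fragments than with 1-361. Without 1-361+362-549 replicate 3 the count was 3888 (25.5%), 1554 higher (10.2%) and 2334 lower (15.3%), and 1638 of the 1698 stayed called in the same direction. Without replicate 1 or 2 of 1-361+362-549 it was 637 and 591. Without replicate 1, 2 or 3 of 1-361 it was 777, 810 and 967. The 6 arrays lay on 4 slides, of which slides 2 and 3 held both groups. A slide block left 460 genes called (3.02%), 449 of them among the 1698. That model had 7 residual degrees of freedom, against 12 in the main one. With slide as a random block 1490 genes were called, and the estimated correlation of arrays on a slide was -0.05. The share of calls that were higher was 41.8%, and 86.3% without scaling between arrays. The median difference of all genes was -0.04, and 0.39 without scaling. Scaling on the median of each array gave 594 calls with 49.5% higher and a median of 0.27.

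More of the large differences were falls. Among called genes, 478 were lower and 203 higher by at least 1 log2 unit, and 34 were lower and 4 higher by at least 4. The 2 groups did not overlap on any array for 4578 genes (30.0% of those tested), and for 1677 of the 1698 called. For 73 called genes the signal was dim on every 1-361+362-549 array and above background on every 1-361 array, and for 40 the reverse held. Another 9 called genes were dim on all 6 arrays.

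The mean with both fragments was the highest of the 5 group means for 694 of the 710 genes called higher, and the lowest for 961 of the 988 called lower. Over all genes tested these shares were 36.3% and 35.5%. The call itself needs 1 of the 2 groups to lie away from the other, so these counts are a description. The 1-361 mean was the lowest of the 5 for 383 of the 710 (53.9%) and the highest for 370 of the 988 (37.4%). Over all genes tested it was the lowest for 18.1% and the highest for 21.5%. Against 362-549 alone 2222 genes (14.6%) were called and against WT 783 (5.13%). These comparisons share the 1-361+362-549 arrays. In 1 direction against 1-361, 362-549 and WT alike, 219 genes were called higher and 329 lower.

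Among the largest rises, a probe at the downstream end of Macrod2, a gene for a mono-ADP-ribosyl hydrolase, was bright with both fragments only. Its level was 2.55, 2.51 and 2.66 on the 1-361+362-549 arrays, against -6.54, -6.94 and -6.51 on the 1-361 arrays, where it was dim. That is at least 162-fold higher (limma adjusted p = 4.37e-12), and it was dim on all 11 other arrays as well. An adjusted p beside a bound, here and below, belongs to the fitted difference and does not test the bound. Cxcl3, a chemokine that draws neutrophils, had levels of -0.49, -1.34 and 0.23 with both fragments, against -4.47, -6.29 and -6.04 with 1-361, where it was dim. It was at least 17.7-fold higher (8.66e-06). No 1-361 array reached the lowest 1-361+362-549 array for either gene.

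The serine protease inhibitor gene Serpinb6e was at least 17.4-fold higher (limma adjusted p = 1.19e-05) and Inha, the alpha subunit of the hormone inhibin, at least 6.95-fold (1.95e-05). Slc17a8, a vesicular glutamate transporter, averaged -0.35 ± 0.10 with both fragments and -4.06 ± 0.41 with 1-361 (SD, n = 3 each), a rise of 3.71 ± 0.24 (SE; 1.04e-07). Its second probe moved the same way. Myl2, a regulatory myosin light chain of slow and cardiac muscle, was at least 2.39-fold higher (7.14e-07). Mylk, myosin light chain kinase, rose by 3.85 ± 0.28 (3.9e-07) on its brightest probe, at 35001266 to 35001325 on chromosome 16 of mm9. There 2 of the 3 1-361 arrays were above background. Its other probe, at 34953958 to 34954017, had a difference of -0.30. The deubiquitinase gene Usp17lc was at least 3.80-fold higher on 1 probe and dim on all 6 arrays at its other.

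**Figure D1:**
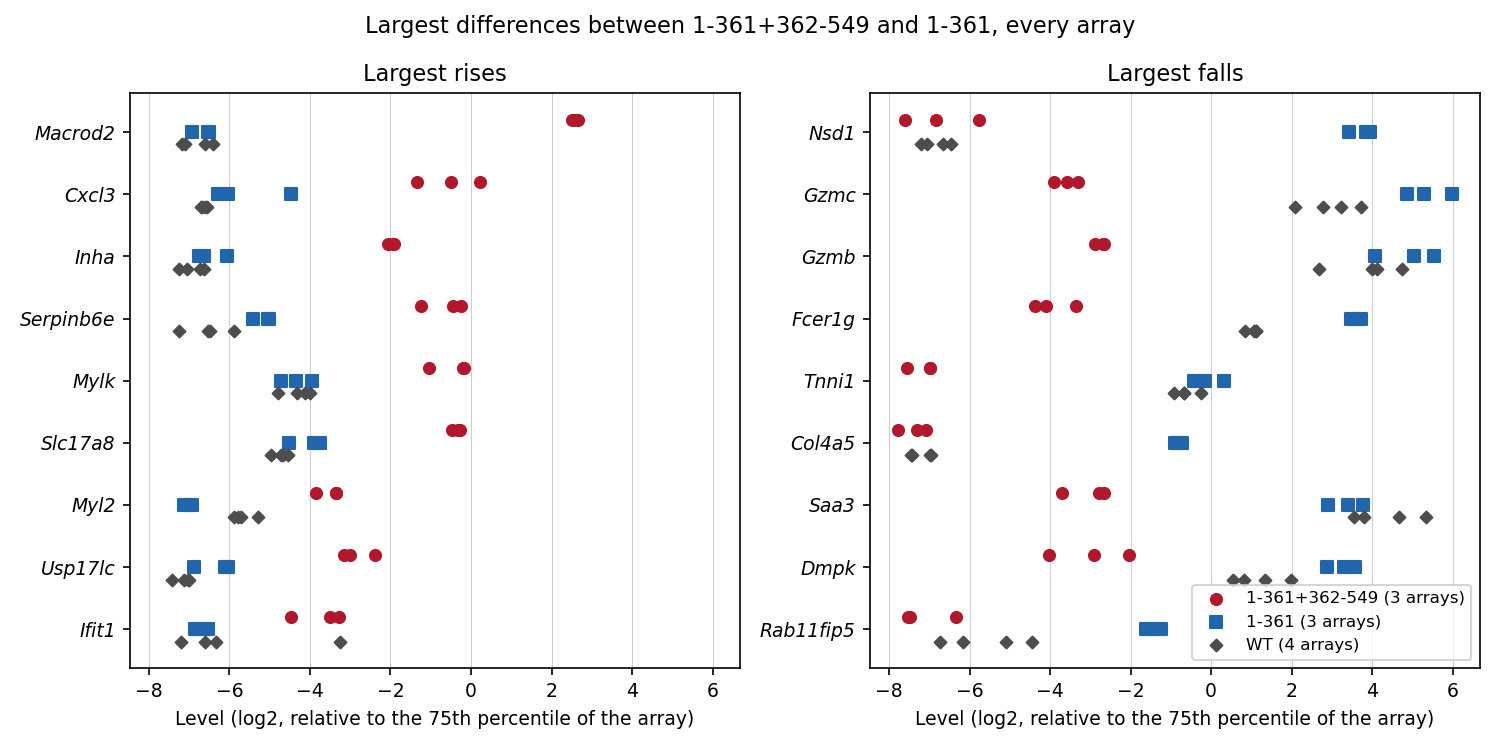
Levels of the 9 largest rises (left) and the 9 largest falls (right) on every 1-361+362-549, 1-361 and WT array, on a log2 scale relative to the 75th percentile of the array. Each point is 1 array. The 1-361+362-549 arrays (circles) lie clear of the 1-361 arrays (squares) in every row, which the choice of genes fixed, and Macrod2 and Nsd1 show the widest gaps.

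The largest falls were of Nsd1, Gzmc, Gzmb and Fcer1g. Nsd1, a histone H3 lysine methyltransferase, was dim with both fragments at -6.84, -7.59 and -5.76, against 3.43, 3.84 and 3.95 with 1-361, at least 497-fold lower (limma adjusted p = 2.81e-10). This probe was bright in 1-361 and dim on all 11 remaining arrays. Nsd1, Rab11fip5, a Rab11 effector in membrane recycling, and Col4a5, a basement membrane collagen chain, had been picked earlier from these 1-361 arrays, so their differences are descriptions. Col4a5 was at least 21.1-fold and Rab11fip5 at least 13.6-fold lower than in 1-361. All 3 were dim on every array with both fragments. Their differences against 362-549 and WT did not pass, at limma adjusted p of 0.796 and 0.9 for Nsd1, 0.116 and 0.705 for Col4a5, and 0.192 and 0.189 for Rab11fip5.

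Other large falls were also lower than in 362-549 and in WT. Fcer1g, the signalling gamma chain shared by Fc receptors, was at -4.11, -4.38 and -3.37 with both fragments, against 3.72, 3.57 and 3.49 with 1-361, a difference of -7.55 ± 0.21 (SE; limma adjusted p = 6.86e-12). Its differences against 362-549 and WT were -4.61 ± 0.21 and -4.98 ± 0.20 (2.52e-09 and 3.71e-10). Tnni1, slow skeletal troponin I, was dim at -6.99, -7.57 and -6.99 with both fragments, against -0.14, 0.31 and -0.43 with 1-361. It was at least 35.0-fold lower (1.15e-10). Saa3, an acute-phase serum amyloid, fell by 6.41 ± 0.60 (7.33e-06), and Dmpk, a kinase best known from myotonic dystrophy, differed by -6.24 ± 0.64 (1.74e-05). Ryk, a Wnt co-receptor, was at least 11.0-fold lower (8.65e-07).

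The probes along Macrod2 and Nsd1 did not move together. Macrod2 has 6 probes on the array, placed on chromosome 2 of mm9. The 4 upstream ones, which start at 140245667, 140246100, 142043337 and 142060052, were dim on all 17 arrays. The 2 most downstream, at 142215725 to 142215784 and 142218642 to 142218701, were above background on all 3 arrays with both fragments and on no other array. Levels at the first of these averaged 3.13 with both fragments and -7.08 with 1-361. Nsd1 has 2 probes on chromosome 13, and only the downstream one, at 55419594 to 55419653, was bright, on the 1-361 arrays alone. A bright and a dim Macrod2 probe are shown because they mark where along the gene the signal appears. These 60-base sequences are printed as the array files give them, with nothing marked.
Macrod2 probe chr2:142215725-142215784 (mm9, + strand), bright with both fragments: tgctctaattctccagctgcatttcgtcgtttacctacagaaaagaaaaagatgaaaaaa
Macrod2 probe chr2:142043337-142043396 (mm9, + strand), dim on every array: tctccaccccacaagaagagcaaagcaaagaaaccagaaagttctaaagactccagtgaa
The nearest tested named gene downstream, Kif16b, a kinesin gene 225474 bases away, differed by 0.04 (limma adjusted p = 0.82).

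**Figure D2:**
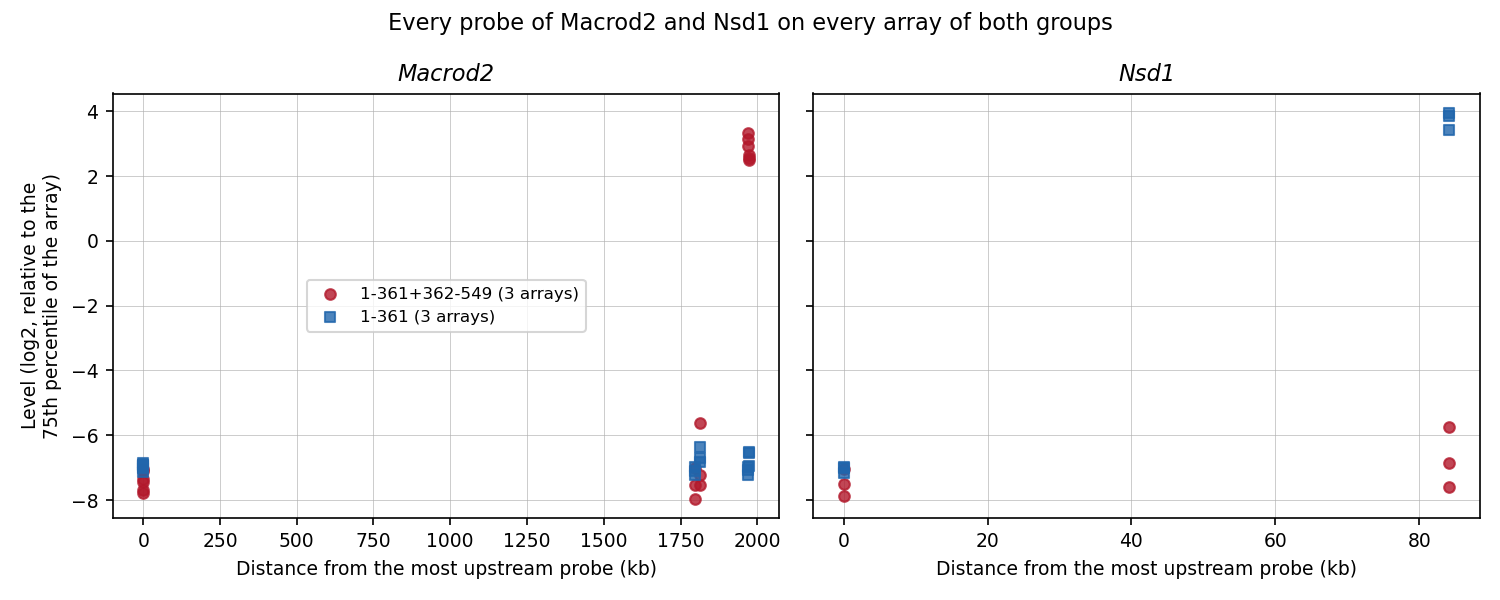
Log2 levels, relative to the 75th percentile of the array, of every probe of Macrod2 (left) and Nsd1 (right) on the 3 arrays of each group, against distance in kb from the most upstream probe. Only the downstream end of Macrod2 is bright with both fragments (circles) and only the downstream end of Nsd1 with 1-361 (squares).

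The transfected gene itself did not differ detectably between the groups. The single Rela probe read 4.94, 4.86 and 4.79 with both fragments, against 4.73, 4.82 and 4.80 with 1-361 (difference 0.08 ± 0.11, SE; limma adjusted p = 0.65). Whether this probe lies inside either construct was not checked here, since no transcript sequence of Rela was used. The presence of the fragments therefore rests on the labels.

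Among NF-kB subunits and inhibitors, the partners of the alternative pathway were higher with both fragments. Relb, the subunit that pairs with p52, stood at 1.29, 1.37 and 0.87 with both fragments, against -0.34, -0.56 and -0.11 with 1-361. The groups did not overlap, and the rise was 1.51 ± 0.23 (SE; limma adjusted p = 0.000624). Another Relb probe differed by 1.51, and the dimmest of the 3 by -0.15. Nfkb2, which encodes p100, the precursor of p52, stood at 1.66, 1.68 and 0.98, against 0.51, 0.39 and 0.39 with 1-361, a rise of 1.01 ± 0.20 (0.00588). With slide as a block Relb remained called (0.0141) and Nfkb2 did not (0.0612).

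Of the 34 genes tested from the list of subunits, inhibitors and signalling adaptors, 4 were called higher and 1 lower, 11.8% and 2.94% beside 4.65% and 6.48% of all genes. Ripk1, a kinase that relays TNF receptor signals, rose by 0.83 ± 0.20 (limma adjusted p = 0.0169) and Nfkbie, the inhibitor IkB-epsilon, by 0.61 ± 0.17 (0.0361). Nfkbiz, a nuclear regulator of NF-kB that was chosen for mention after its value was seen, fell by 0.83 ± 0.25 (0.0476). Nfkbie and Nfkbiz lost the call without each array except 1-361+362-549 replicate 3, at adjusted p of up to 0.132 and 0.191, and Ripk1 without 1-361+362-549 replicate 1 or 2 or 1-361 replicate 2 (up to 0.0894). With the slide block none of these 3 was called (0.094 for Ripk1, 0.125 for Nfkbie, 0.16 for Nfkbiz). Differences of the other subunits and feedback inhibitors did not pass: 0.51 ± 0.22 for Nfkb1 (0.131), 0.05 ± 0.23 for Nfkbia (0.9) and 0.44 ± 0.26 for Tnfaip3 (0.26). Rel was not tested. The median of the list was 0.12, against -0.04 for all genes. Without 1-361+362-549 replicate 3 the list had 10 called higher and 1 lower.

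NF-kB target genes moved in both directions. Of 37 tested, 4 were called higher and 6 lower (10.8% and 16.2%, beside 4.65% and 6.48% of all genes). Their median was -0.00, and 0.42 on unscaled values, beside -0.04 and 0.39 for all genes. Slfn2, a growth-restraining Schlafen gene, was at -0.65, -0.51 and -1.25 with both fragments, against -3.15, -2.71 and -3.10 with 1-361, a rise of 2.19 ± 0.23 (SE; limma adjusted p = 1.74e-05). The macrophage chemokine gene Ccl4 went the other way, at -3.53, -3.89 and -2.63 with both fragments, against -0.16, 0.58 and -0.07 with 1-361 (-3.47 ± 0.42; 7.62e-05). Its neighbour Ccl3 was dim on all 3 arrays with both fragments and at least 2.53-fold lower (1.04e-05). The groups did not overlap for any of the 3.

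Further called members, named from the calls, were Cxcl10, a T-cell chemokine (1.94 ± 0.40; limma adjusted p = 0.00714), Irf7, a driver of interferon genes (1.54 ± 0.30; 0.00502), and Il6, a B-cell and acute-phase cytokine (1.43 ± 0.32; 0.0118), all higher. Il6 had 0.0511 without 1-361 replicate 3. Lower were Csf1, the macrophage growth factor (-1.82 ± 0.26; 0.000394), Tnfrsf1b, a TNF receptor, Ier3, a stress-response gene, and the costimulator Cd80 (-0.97, -0.77 and -0.64). Tnfrsf1b lost the call without 1-361+362-549 replicate 1 or 2 or 1-361 replicate 3 (up to 0.0856), Ier3 without 1-361+362-549 replicate 2 or 1-361 replicate 1 (up to 0.0983), and Cd80 without 1-361+362-549 replicate 1 or 2 or 1-361 replicate 2 or 3 (up to 0.133). A second Cd80 probe differed by 0.10. With the slide block 1 target stayed called higher (Slfn2) and 3 lower (Ccl3, Ccl4 and Csf1). Without 1-361+362-549 replicate 3 the counts were 7 higher and 8 lower.

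Among interferon-stimulated genes, the calls ran almost wholly upward. Of 39 tested, 15 were called higher and 1 lower, 38.5% and 2.56% beside 4.65% and 6.48% of all genes, and the median was 0.43, against -0.04 for all genes. The median was 0.85 without scaling and 0.73 with median scaling, where the median of all genes was 0.39 and 0.27, and 0.47 with quantile and 0.41 with normexp values. Within slide 2 the median was 0.31 and within slide 3 it was 0.55. The slide block kept 4 of the higher calls, and 7 of the 16 calls held without each array in turn. Without 1-361+362-549 replicate 3 the counts were again 15 and 1.

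Samd9l, an antiviral and growth-restraining factor, was at 1.00, 0.94 and 0.71 with both fragments, against 0.09, 0.22 and 0.12 with 1-361, a rise of 0.74 ± 0.12 (SE; limma adjusted p = 0.00145). Mx2, an antiviral GTPase, averaged -1.28 ± 0.28 with both fragments and -2.83 ± 0.35 with 1-361 (SD, n = 3 each), a rise of 1.55 ± 0.26 (SE; limma adjusted p = 0.0018). Neither gene's groups overlapped. Ifit1, which binds foreign RNA caps, had the largest fitted rise of the list, at -3.50, -3.29 and -4.46, against 3 dim 1-361 arrays, and was at least 2.03-fold higher (0.0163). It lost the call without 1-361+362-549 replicate 1 or 2 or 1-361 replicate 1 or 2 (up to 0.0793). Isg15, the ubiquitin-like modifier, rose by 1.90 ± 0.37 (0.00465), Oas2, a sensor of double-stranded RNA, by 1.77 ± 0.36 (0.00671), and Irf9, a subunit of the factor that binds interferon response elements, by 0.77 ± 0.14 (0.00276).

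The other 8 called higher, also named from the calls, were Gbp3 (1.96), Oasl1 (1.58), Xaf1 (1.23), Oas1a (1.22), Ifi27 (1.01), Zbp1 (0.88), Irgm1 (0.60) and Igtp (0.52), beside Irf7 given above. Each of these 8 lost the call without at least 2 of the 6 arrays, at adjusted p of up to 0.221, though none without 1-361+362-549 replicate 3. The guanylate-binding gene Gbp4 ran against the rest: it was dim with both fragments at -6.41, -5.53 and -6.78, against -3.20, -3.95 and -2.81 with 1-361, at least 3.63-fold lower (limma adjusted p = 0.000249). Usp18, an Isg15 protease, differed by -1.09 and did not pass (0.076).

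**Figure D3:**
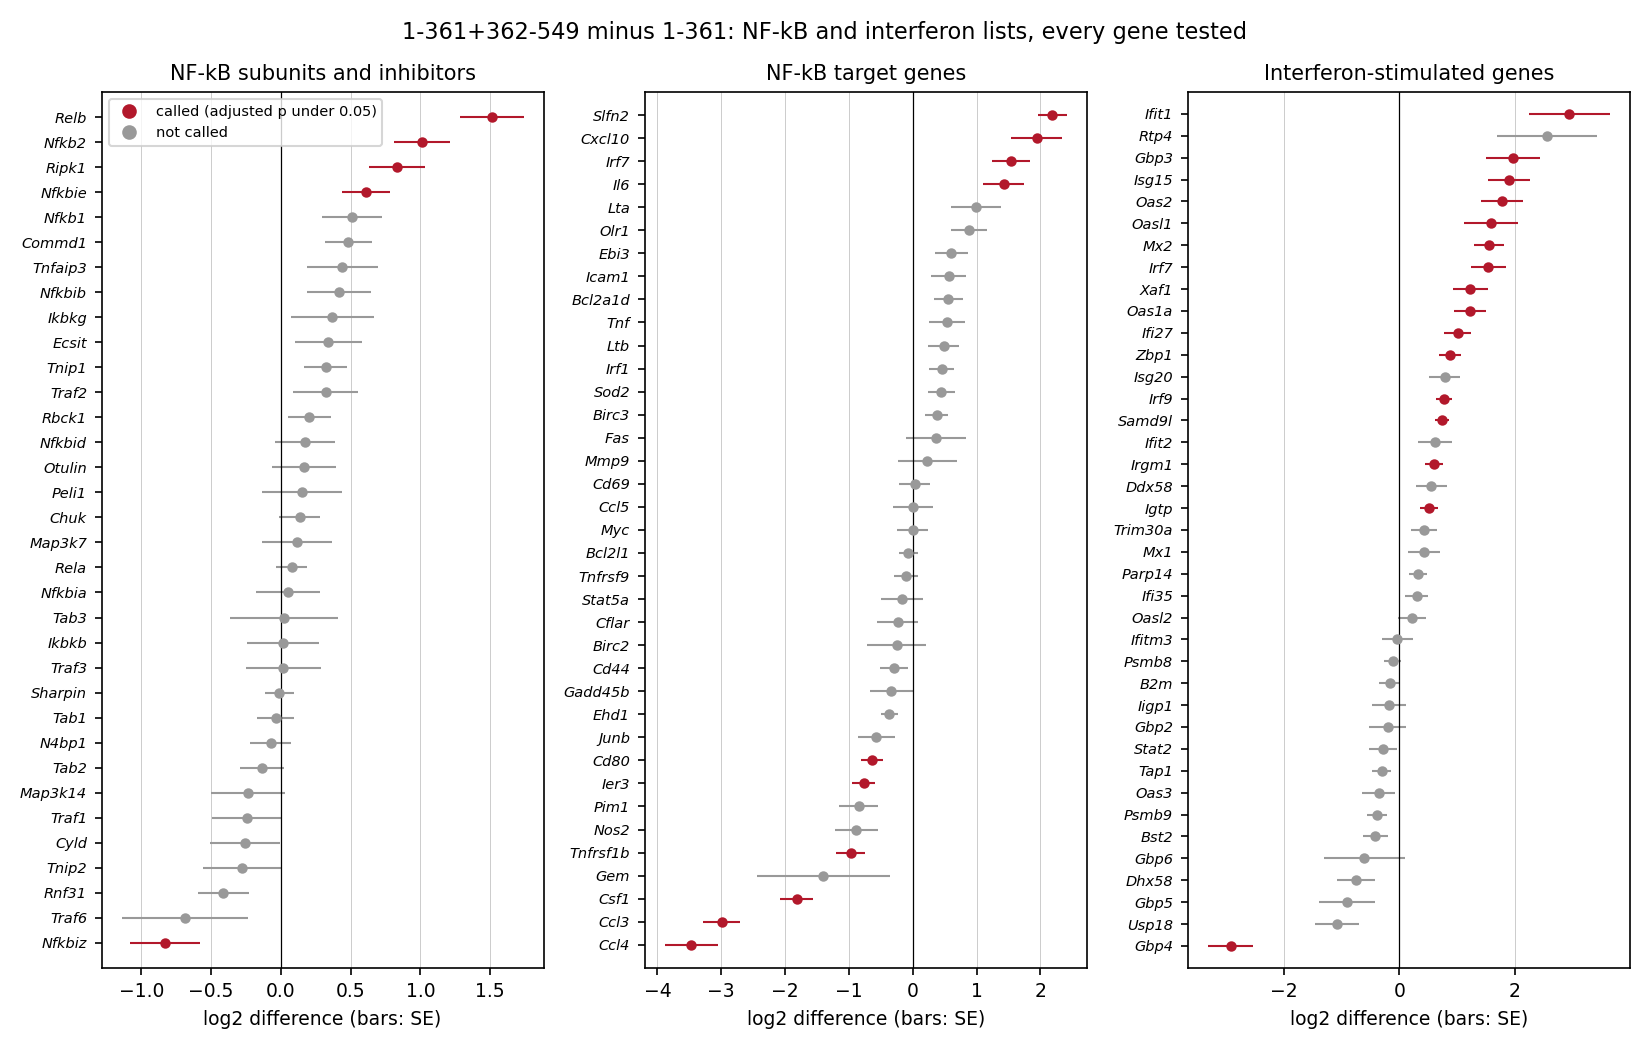
Log2 differences, 1-361+362-549 minus 1-361, with their SE for every tested gene of the NF-kB and interferon lists. Red points passed the test and grey ones did not. The interferon list leans right, with 15 called higher and 1 lower, while NF-kB targets lie on both sides of 0.

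Promoter letters of the called NF-kB and interferon genes are shown because the transfected protein binds kB sites. Windows run from 250 bases before to 50 after each annotated start, from RefSeq on GRCm38.p6, and 9713 of the tested genes had at least 1. The kB consensus, sought on both strands, was present for 15.6% of genes called higher (74 of 476) and 11.7% of those called lower (65 of 558), beside 12.1% of all tested genes and 8.46% of all promoters of that length. Among the 7 NF-kB list members called higher with a promoter it was present in 4: Cxcl10, Il6, Nfkb2 and Nfkbie. Among the 5 called lower it was present in 2, Csf1 and Ier3. It was present for 1 of 11 interferon-stimulated genes called higher and for 9 of all 27 tested. The kB lines printed below are all from genes called higher. The interferon motif GAAANNGAA, sought on both strands, was present for 7 of 11 interferon-stimulated genes called higher and for 16 of all 27 tested, beside 8.66% of all tested genes and 8.56% of all promoters. A match is a description of letters, not a bound site. Capitals mark the match, and each line is written along the strand of the gene.
Nfkb2 kB, chr19:46304683-46304722 (+): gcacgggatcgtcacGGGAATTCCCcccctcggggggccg
Nfkbie kB, chr17:45555579-45555618 (+): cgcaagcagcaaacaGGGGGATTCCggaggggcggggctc
Il6 kB, chr5:30013055-30013094 (+): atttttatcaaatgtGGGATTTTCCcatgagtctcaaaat
Cxcl10 kB, chr5:92349024-92349063 (-): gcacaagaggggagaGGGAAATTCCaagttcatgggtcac
Cxcl3 kB, chr5:90786013-90786052 (+): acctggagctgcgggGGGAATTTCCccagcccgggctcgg
Cxcl10 interferon motif, chr5:92349079-92349117 (-): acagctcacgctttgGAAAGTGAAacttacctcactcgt
Isg15 interferon motif, chr4:156200867-156200905 (-): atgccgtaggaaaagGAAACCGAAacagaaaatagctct
Ifit1 interferon motif, chr19:34640790-34640828 (+): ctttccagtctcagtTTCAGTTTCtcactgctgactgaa
Cxcl10 carries both motifs, and the match in Ifit1 is the reverse complement. Overlapping or repeated matches of a motif were counted once per gene.

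Among survival genes, Bcl2, which encodes an anti-apoptotic protein of the mitochondrial membrane, was at -0.43, -0.73 and -0.42 with both fragments, against 3.06, 3.62 and 3.25 with 1-361, a fall of 3.84 ± 0.26 (SE; limma adjusted p = 1.66e-07). Its difference was -4.93 ± 0.26 against 362-549 and -4.22 ± 0.24 against WT. Of the 33 tested BCL2 family and caspase genes it was the only one called, beside a background of 6.48% called lower. The call held without each array and with the slide block (8.67e-05).

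Among genes that report STAT5 and Bcr-Abl signalling, 7 of 27 tested were called lower (25.9%) and 1 higher (3.70%), beside 6.48% and 4.65% of all genes. The slide block left 3 called lower. Il2ra, the interleukin-2 receptor alpha chain, was at -4.92, -4.91 and -3.99 with both fragments, against 0.83, -0.34 and 0.69 with 1-361 (-5.00 ± 0.48, SE; limma adjusted p = 8.48e-06; 2 of 3 arrays with both fragments above background). Osm, the cytokine oncostatin M, fell by 2.03 ± 0.31 (0.000828) and Id1, an inhibitor of differentiation factors, by 0.85 ± 0.14 (0.0016). These 3 kept the call without each array and with the slide block. Cish, Lif, Socs1 and Socs3 differed by -1.84, -1.79, -1.04 and -0.67, and Spred1, a restraint on Ras signalling, by 0.56. All 5 were called but none with the slide block (0.0748 to 0.149), and each lost the call without at least 1-361+362-549 replicate 1 and 2 (up to 0.124). The list median was -0.30, or 0.13 without scaling and 0.01 with median scaling. Over all genes these medians were -0.04, 0.39 and 0.27. Without 1-361+362-549 replicate 3 the list had 11 called lower and 1 higher.

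Of 27 tested p53 target genes 6 were called lower (22.2%, beside 6.48% of all genes), against 1 with the slide block and 1 without scaling, and 2 of the 6 calls held without each array. The list median was -0.29, or 0.14 without scaling and 0.02 with median scaling, beside -0.04, 0.39 and 0.27 for all genes. Btg2, an antiproliferative gene, fell by 1.59 ± 0.25 (limma adjusted p = 0.000963) and Zmat3, an RNA-binding p53 target, by 0.80 ± 0.15 (0.004). The other 4, Psrc1, Cdkn1a, Plk3 and Dcxr, differed by -0.84, -0.76, -0.65 and -0.58, and each lost the call without at least 4 arrays (up to 0.235). Cebpb, a transcription factor of myeloid and stress programmes, fell by 1.22 ± 0.19 (0.000962), and Me1, malic enzyme, by 1.12 ± 0.16 (0.000479). Higher were Idi1, an isomerase of the cholesterol pathway (1.89 ± 0.31; 0.00136), Eprs, a transfer RNA synthetase (0.82 ± 0.13; 0.00082), and Hif1a, the oxygen-regulated factor (0.77 ± 0.13; 0.0017). A dimmer Hif1a probe differed by -0.28. Of Btg2, Zmat3, Cebpb, Me1, Idi1, Eprs and Hif1a, none lost the call when any 1 array was left out, and all but Zmat3 kept it with the slide block (0.0701).

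Cell cycle genes were positive as a list, with 42 of 45 differences above 0 and a median of 0.56, and 4 were called, all higher (8.89%, beside 4.65% of all genes). These were Plk1 (0.95), Mad2l1 (0.88), Tyms (0.73) and Foxm1 (0.64), mitotic and DNA synthesis genes. None was called with the slide block, and each lost the call without at least 4 of the 6 arrays, 1-361+362-549 replicate 1 and 2 among them (up to 0.22). The list median was -0.10 within slide 2 and 1.04 within slide 3. Glycolysis and hypoxia genes had medians of 0.71 and -1.05 within these slides and -0.32 over all, and cholesterol and fatty acid synthesis genes 1.05 and -0.52 with 0.28 over all. For these 3 lists the direction of the median therefore differed between the 2 slides, as it did for NF-kB targets (-0.11 and 0.16) and some other lists. Each slide held 1 array of each group. By the numbers in the sample titles, slide 2 set round 3 of both fragments against round 2 of 1-361. Slide 3 set round 2 of both fragments against round 3 of 1-361. Slide, title round and single array cannot be told apart here, and their part was not tested further.

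**Figure D4:**
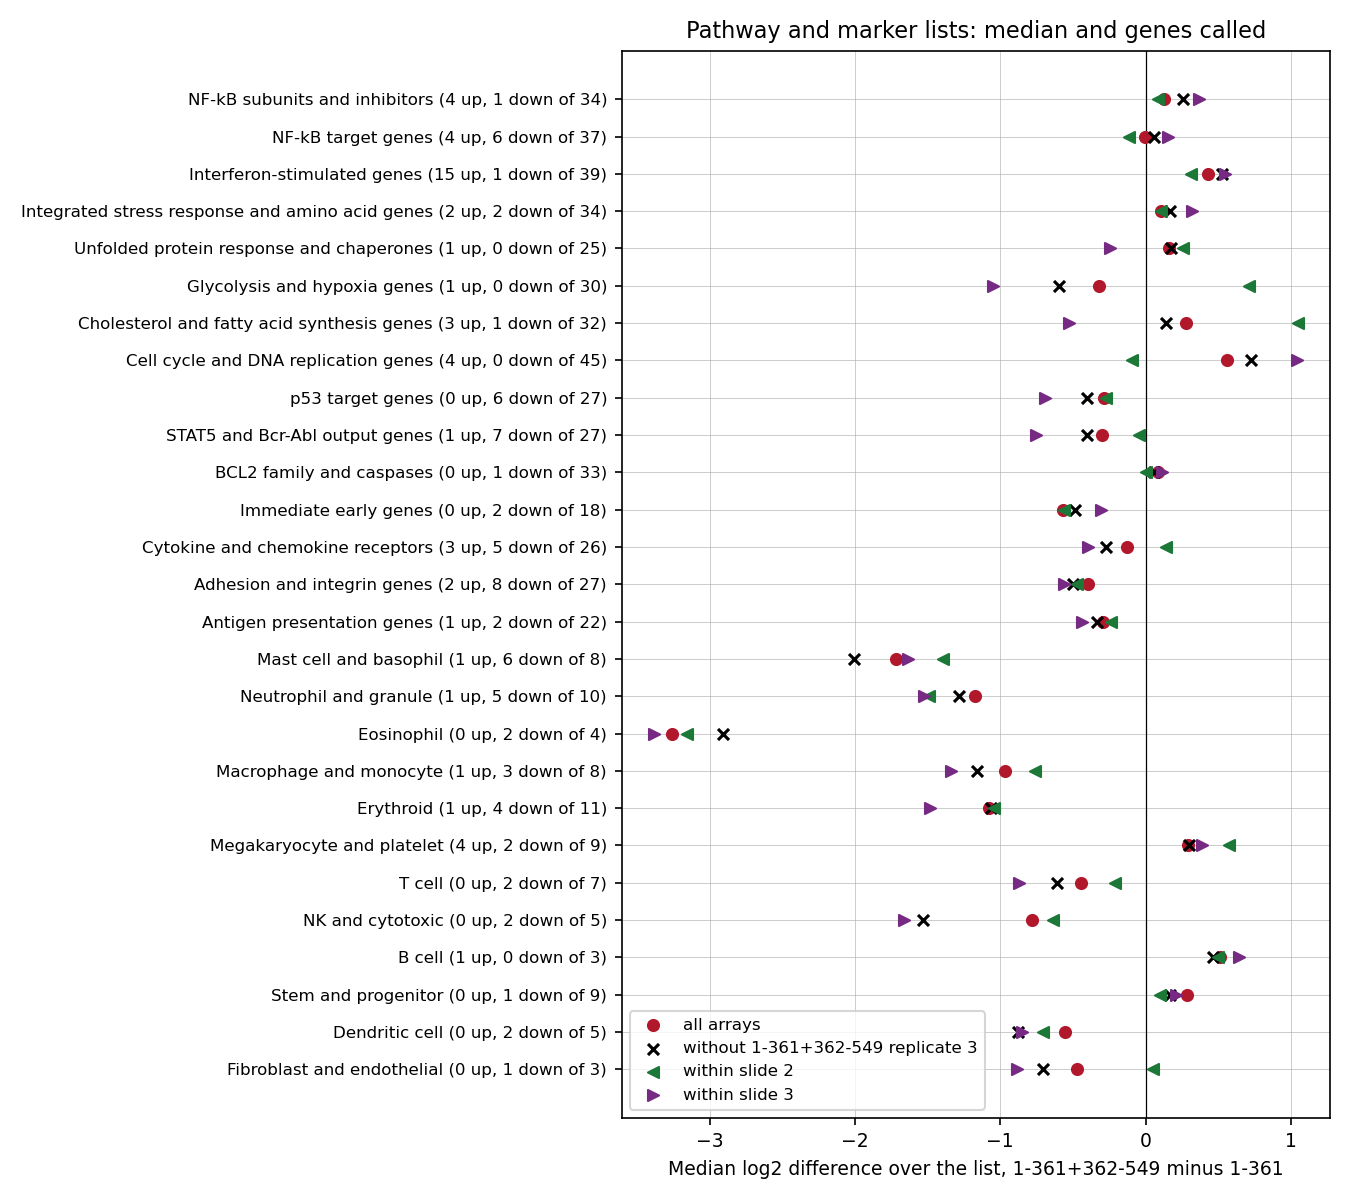
Median log2 difference, 1-361+362-549 minus 1-361, over the tested genes of each list, with all arrays (circles), without 1-361+362-549 replicate 3 (crosses) and within each of the 2 slides that hold both groups (triangles). Names give the genes called up and down of those tested. Granule and cytotoxic lists lie left at every setting. The glycolysis, cholesterol and cell cycle lists lie on both sides of 0 within slides. So do the NF-kB target, unfolded protein response, cytokine and chemokine receptor, and fibroblast and endothelial lists.

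Of 5 tested NK and cytotoxic markers, out of 12 listed, 2 were called, both lower, beside 6.48% of all genes, and both are granzymes, cytotoxic proteases. Gzmc was at -3.91, -3.59 and -3.31 with both fragments, against 5.30, 5.99 and 4.87 with 1-361, and fell by 8.99 ± 0.39 (SE; limma adjusted p = 7.24e-10). Gzmb was at -2.89, -2.66 and -2.69, against 5.03, 5.53 and 4.06 with 1-361 (-7.62 ± 0.49; 1.1e-07). Both stayed above background with both fragments, and both were also lower than in 362-549 (-9.04 ± 0.39 and -8.59 ± 0.49) and than in WT (-6.55 ± 0.36 and -6.64 ± 0.46). The other 3 tested NK and cytotoxic markers, Klra1, Nkg7 and Prf1, differed by -0.78, -0.61 and -0.70 and were not called. The summed level of the list was 2.03 to 3.73 with both fragments and 49.0 to 113 with 1-361, in units of the 75th percentile. In bulk RNA, fewer cells of a type and less RNA per cell cannot be told apart.

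Of the mast cell and basophil markers, 6 of 8 tested, out of 16 listed, were called lower and 1 higher (beside 6.48% and 4.65% of all genes), with and without 1-361+362-549 replicate 3. The slide block left 4 called lower and normexp values 3. Cpa3, mast cell carboxypeptidase, was at -6.34, -5.31 and -7.02, against -0.64, -0.88 and -1.40 with 1-361. It had been picked earlier from the 1-361 arrays, so its difference of -5.25 is a description, and 1 of 3 arrays with both fragments was above background. Cma1, a mast cell chymase, fell by 5.22 ± 0.28 (limma adjusted p = 1.54e-08) and Mcpt4, another, by 5.19 ± 0.37 (2.78e-07). Fcer1a, the mast cell IgE receptor chain, was dim on all 6 arrays though called lower, and its difference turned to 0.14 with normexp values. Gata2, a factor of mast cells and progenitors, averaged 4.97 ± 0.20 with both fragments and 5.61 ± 0.08 with 1-361 (SD, n = 3 each; difference -0.65, limma adjusted p = 0.0369) and lost the call without each array except 1-361+362-549 replicate 3 (up to 0.162). The summed level of the list was 28.7 to 37.2 with both fragments and 55.0 to 58.3 with 1-361. Most of this sum was Gata2, at log2 levels of 4.90, 4.81 and 5.19 with both fragments and 5.54, 5.59 and 5.70 with 1-361. The sum therefore says little about the other markers.

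Neutrophil granule genes had 5 of 10 tested members called lower (beside 6.48% of all genes), 4 of them stefin A genes, inhibitors of cysteine proteases, and 1 called higher. Under the slide block 4 were called lower, and with normexp values 1 member was called, higher. Stfa1 and Stfa2l1 were dim with both fragments, at least 8.90-fold and 5.21-fold lower than with 1-361 (limma adjusted p = 8.14e-07 and 5.24e-07). Cxcr2, the neutrophil receptor for Cxcl3 and related chemokines, ran the other way, at 0.06, -0.03 and 0.22 with both fragments, against -2.04, -1.89 and -1.22 with 1-361 (1.80 ± 0.30; 0.00161). Of 4 tested eosinophil genes, Prg2 and Epx, granule major basic protein and peroxidase, were called lower. Prg2 fell by 4.45 ± 0.76 (0.00188) and Epx was at least 7.97-fold lower (0.000134). Summed levels were 2.64 to 2.81 against 3.72 to 5.50 with 1-361 for the neutrophil list, and 0.82 to 1.04 against 2.29 to 3.88 for the eosinophil list. The 4 stefin A genes, at mean log2 levels of -3.47 to -2.06 with 1-361, were a small part of the neutrophil sum.

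Of 8 tested macrophage markers 1 was called higher and 3 lower (12.5% and 37.5%, beside 4.65% and 6.48% of all genes). Fcgr1, a high-affinity IgG receptor, rose by 0.91 ± 0.22 (limma adjusted p = 0.0185) and lost the call without 1-361 replicate 1 or 3 (up to 0.0777). Adgre1, the macrophage antigen F4/80, was at least 7.37-fold lower (4.05e-06) and Lyz1, a lysozyme, fell by 1.34 ± 0.24 (0.00257). Cd68, a lysosomal glycoprotein, fell by 1.68 ± 0.44 (0.0259) and lost the call without 1-361+362-549 replicate 1 or 2 or 1-361 replicate 1 or 2 (up to 0.118). Of 7 tested T-cell markers 2 were called, both lower (28.6%), and of 5 dendritic cell markers 2, both lower, beside 6.48% of all genes. Cd3g, a T-cell receptor chain, was at least 4.47-fold lower (1.62e-05) and Cd3d fell by 1.58 ± 0.12 (3.9e-07), while Cd3e differed by -0.22 and was not called. The 7 T-cell differences ran from -4.07 to 1.30, with 2 above 0 and 5 below. Itgax, an integrin of dendritic cells, was dim with both fragments and at least 2.19-fold lower (0.0284), and lost the call without each array except 1-361+362-549 replicate 3 (up to 0.111). Ccr7, the lymph node homing receptor, was at -3.77, -4.17 and -2.59 with both fragments, against -0.19, 0.09 and -0.46 with 1-361 (-3.33 ± 0.46; 0.000305).

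Of 9 tested platelet markers 4 were called higher and 2 lower (44.4% and 22.2%, beside 4.65% and 6.48% of all genes). With the slide block the 1 call left was of Gp6, a collagen receptor, which was dim with both fragments and at least 2.89-fold lower than with 1-361 (limma adjusted p = 0.00908 with the block, 0.0173 without it). The platelet chemokine Pf4 was at 6.83, 6.56 and 7.24 with both fragments, against 6.02, 5.79 and 5.73 with 1-361 (1.03 ± 0.22; limma adjusted p = 0.00768), and the fibrinogen receptor chain Itgb3 rose by 1.16 ± 0.26 (0.0113). Neither was called with the slide block (0.0614 and 0.0637), and Treml1 and Gp1ba, receptors of the platelet surface, differed by 1.58 and 0.96 and were not called there either. Itgb3 lost the call without 1-361+362-549 replicate 1 or 1-361 replicate 2 (up to 0.0576). The platelet list summed to 140 to 218 with both fragments and 95.6 to 116 with 1-361, and Pf4 alone held a large part of this sum. Among 11 tested erythroid genes 4 beta globin genes were called lower (36.4%, beside 6.48% of all genes) and Epor, the erythropoietin receptor, higher (0.65 ± 0.12; 0.00292). The list summed to 59.4 to 93.1 with both fragments and 144 to 150 with 1-361. Hbb-bt had the highest mean of the called globins with 1-361, a log2 level of 2.56, so these globins were a small part of the sum. The sum therefore says little about them. What part any of these cell type lists has in the other differences was not tested.

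Several of the falls were neighbours on the chromosome. Over all genes tested 6.48% were called lower and the median was -0.04. In the granzyme and chymase cluster on chromosome 14 (mm9, 56561491 to 56877975), 8 of 8 tested features were called lower, with a median of -5.10. In the stefin A cluster on chromosome 16 (36160118 to 36450752) 8 of 9 were lower (median -3.29). In the beta globin cluster on chromosome 7 (110961105 to 111000327) 3 of 4 were lower (median -2.14), and in the CC chemokine cluster on chromosome 11 (83339296 to 83478111) 4 of 6 (median -1.29). The clusters were chosen after these falls were seen, and the near-identical copies within the stefin A and globin clusters can share signal, so their members are not independent. Hbb-bh1, an embryonic globin picked earlier from the 1-361 arrays, was at -3.39, -4.17 and -2.82, against 0.46, -0.18 and 0.41 with 1-361. Its mean in WT was -3.39. In the chemokine cluster Ccl5, a T-cell and monocyte attractant, averaged -2.98 ± 0.71 with both fragments and -2.98 ± 0.05 with 1-361 (SD, n = 3 each), while Ccl3 and Ccl4 at the other end were lower.

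**Figure D5:**
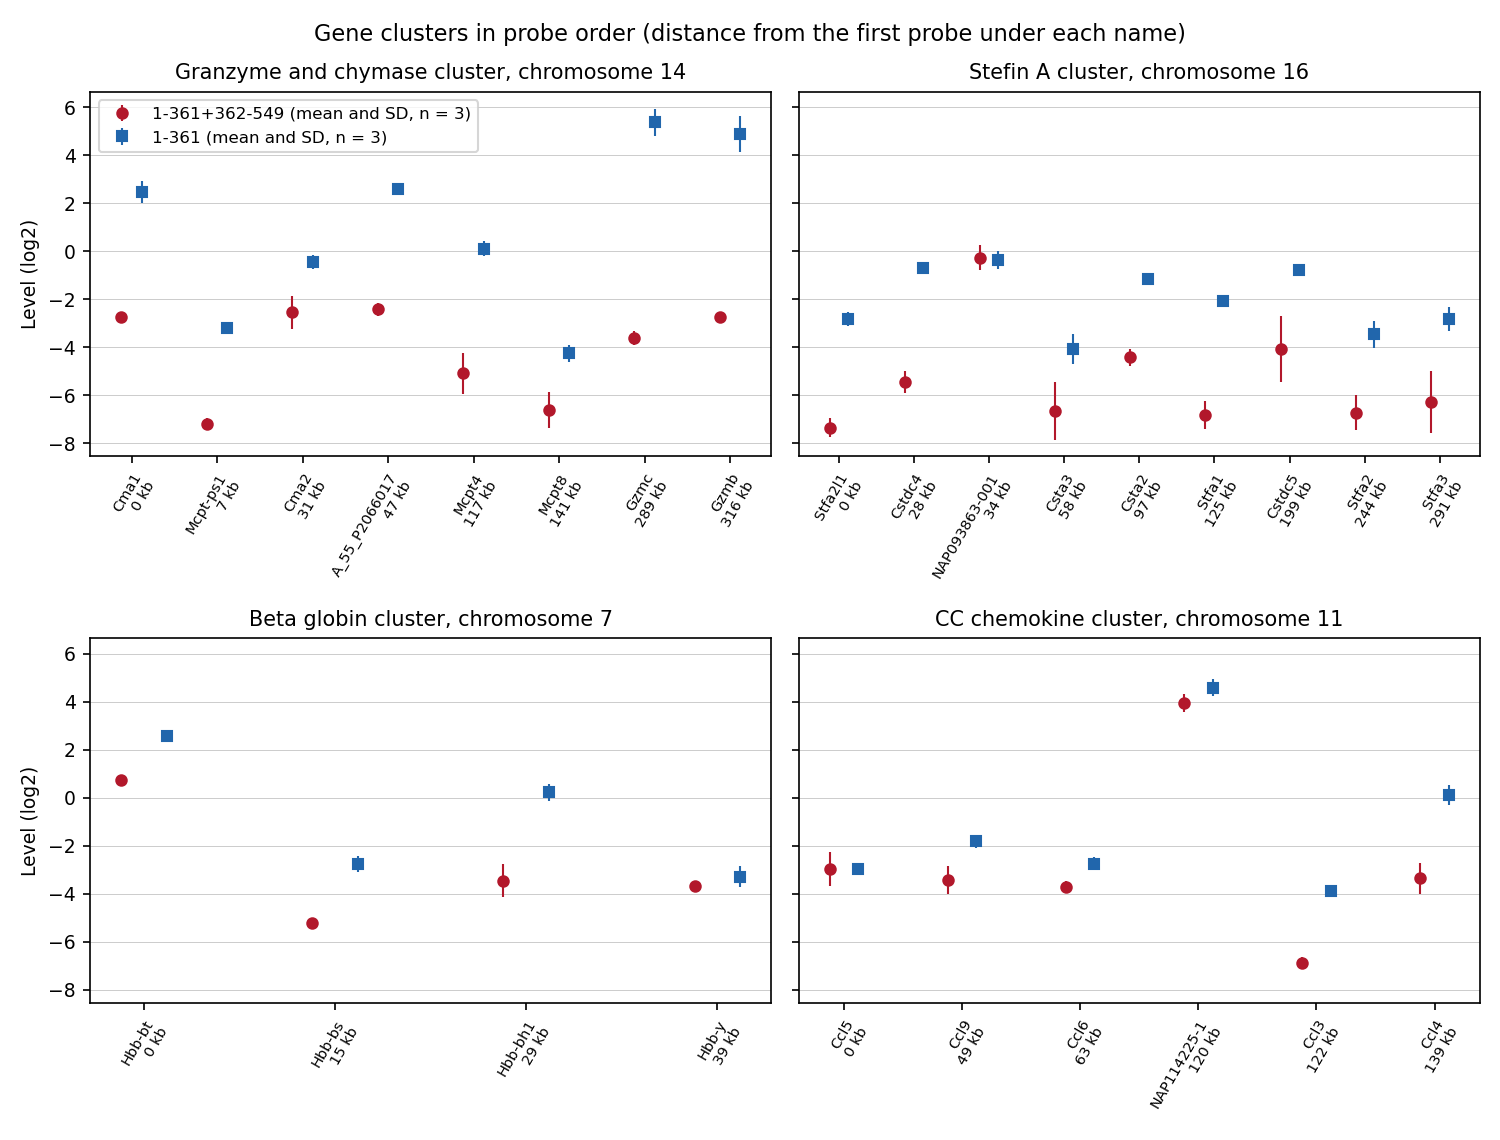
Log2 levels (mean and SD, n = 3) with both fragments (circles) and with 1-361 (squares) of the tested features of 4 gene clusters, in probe order with the distance from the first probe in kb. All 8 features of the granzyme and chymase cluster are lower with both fragments, while Ccl5 in the chemokine cluster has the same mean in both groups.

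Receptor, adhesion and costimulation genes were called in both directions, as named here from the calls. Of 26 tested cytokine and chemokine receptors 3 were called higher and 5 lower (11.5% and 19.2%, beside 4.65% and 6.48% of all genes), and 4 of these 8 calls held without each array. Csf2rb, the signalling chain shared by interleukin-3 and GM-CSF receptors, fell by 0.74 ± 0.16 (SE; limma adjusted p = 0.00841), though not with the slide block (0.0866), and its near-identical copy Csf2rb2 can share signal. Of 27 tested adhesion and integrin genes 2 were called higher and 8 lower (7.41% and 29.6%). The slide block left 2 called, both lower. Their median was -0.40, and 0.03 on unscaled values, beside -0.04 and 0.39 for all genes. Itga4, an integrin that holds blood cells in the marrow, fell by 0.95 ± 0.19 (0.00505) and the selectin ligand Selplg by 0.75 ± 0.15 (0.006), and both missed the threshold with the slide block (0.0525 and 0.0558). Pdcd1lg2, a ligand of the checkpoint receptor PD-1, rose by 1.36 ± 0.28 (0.007). It was the 1 antigen presentation gene of 22 tested that was called higher, while Icosl, a costimulatory ligand (-1.12), and Cd80 (-0.64) were called lower. Of the 22 differences 18 were negative, and the median was -0.29, or 0.14 without scaling, beside -0.04 and 0.39 for all genes. Icosl lost the call without 1-361+362-549 replicate 1 or 2 or 1-361 replicate 1 or 2 (up to 0.144). Amino acid and stress response genes had 2 of 34 called higher and 2 lower (5.88% each).

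Genes that earlier set 1-361 apart from WT took different courses, given here as descriptions. Lpgat1, a lysophospholipid acyltransferase, was at -0.30, -0.30 and -1.14 with both fragments, against -3.29, -3.72 and -2.47 with 1-361. Its means in 362-549 and WT were -1.24 and -0.77. Ogn, an extracellular matrix proteoglycan, was dim with both fragments and at least 7.45-fold lower than in 1-361. Nupr1, a stress-induced nuclear protein, stood at -3.34 with both fragments and -3.28 with 1-361, while 362-549 and WT averaged -0.41 and -0.75. Itih3, an inter-alpha-trypsin inhibitor chain, was at least 2.12-fold lower than in 1-361 and at least 30.1-fold lower than in WT. Cth, which makes cysteine, was dim on all 3 arrays with both fragments and above background on 1 of 3 with 1-361, and Map3k19, a kinase, was dim in both groups, with a difference of -0.78 that turned to 0.35 with normexp values. Lta, the cytokine lymphotoxin alpha, averaged -3.21 with both fragments and -4.20 with 1-361.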

How the data were processed

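RNA of 17 samples was hybridised to 1-colour Agilent mouse arrays (60-base probes, mm9 coordinates). Per the file headers, the deposited intensity values were made with Feature Extraction 10.7.3.1, protocol GE1_107_Sep09, which subtracts background. The series' value table equals these processed signals. Control spots and outlier spots were left out, each array was put on log2 of signal minus its 75th percentile, and spots of a probe were averaged. Probes had to be well above background throughout 1 or more groups to be kept. The brightest kept probe stood for a gene. Symbols were updated through RefSeq accessions for 27597 probes, and 11832 kept the name in the file. Promoters came from RefSeq, GRCm38.p6.

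One limma 3.58.1 model (R 4.3.3) covered the 5 groups with 12 residual degrees of freedom, and p-values were adjusted by Benjamini-Hochberg over 15256 genes. It was tested on simulated data. A gene dim in a whole group has a bound, against the higher of its own signal and the lowest signal well above background on each array. Precision is limited by how many arrays there are.

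The groups, genes and 27 lists were chosen with earlier results of these data known. Named were the 10 largest rises and falls, a set of NF-kB genes, up to 3 called members per list by adjusted p, and genes picked earlier for 1-361 against WT. One gene that this rule names is not reported here. Other list members were named after their values were seen. Alternatives were other scalings, background correction and filters, probe averaging, slide and title round as blocks, array weights, the 6 arrays alone, and each array left out.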

Additional observations from a re-analysis of the deposited data

Results flagged for a closer look

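In 2 of 89 named genes, 1 of the 4 WT arrays lay far from the other 3. Plk1 was at 3.69 in WT replicate 3, against 4.44 to 4.50 in the other WT arrays. Mcpt4 was at -2.20 in WT replicate 1, against -1.44 to -1.33 in the others. Such a gap is found by chance in about 5% of groups of this size, and the groups of 3 were not tested in this way. No 1-361+362-549 or 1-361 array enters either value.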

How the results depend on the processing

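The count of 1698 genes called depended on the setting. It was 544 with the 6 arrays alone, 594 with median scaling, 294 with normexp background, 751 with no filter on dim probes, 1119 with probes well above background on at least 1 array, and 460 with slide as a block. It was 8666 with array weights, fitted gene by gene because the default estimate did not converge. Leaving out 1 array gave 591 to 3888. Counts of 2110 without scaling, 1529 with quantile values, 1503 with probes above background on all arrays, 1608 with the mean of all probes and 1490 with slide as a random block were within 1.5 times. The share of calls that were higher was 86.3% without scaling. With the title round as a replicate block 5632 genes were called (36.9%), among them all 1698. Deviations from the group mean correlated at 0.205, 0.070 and 0.288 for same-round arrays, and at -0.448 to 0.320 for other pairs. Whether the title numbers pair the arrays was therefore not settled, and the main model left them out. Calls of 62 of the 82 named genes survived every left-out array, 61 survived the slide block and 81 survived slide as a random block. The turned values were 0.14 for Fcer1a and 0.35 for Map3k19 with normexp, and, for Mylk with probes above background on all arrays, -0.30 against 1-361 and -0.44 against 362-549, where another probe stands for the gene. The cause of the other changes was not tested. With 3 arrays a group and 1 that stands apart, small differences were not detectable, and dim signals have only a bound.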
